A study of Mus musculus with 3 samples.

Results

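Neutrophils store ready-made proteins in granules, and the genes of 10 such proteins were followed here across the blood cells of young, aged and aged-GA mice. The 10 genes, Ngp, Camp, Ltf, Lcn2, Mmp8, Cd177, Mmp9, Elane, Mpo and Prtn3, were found by symbol, each as 1 of the 32285 features in every library. Peripheral blood mononuclear cells (PBMCs) of C57BL/6 female mice were measured by droplet single-cell RNA sequencing of 3′ ends, with 1 library for each group. The young group was 8 weeks old and the aged group 16 months old, both labelled as without treatment, and the study's methods give the controls a saline injection into the tail vein. The aged-GA group was also 16 months old and had received glycyrrhizic acid (GA), the main triterpenoid glycoside of licorice root, for 1 month by the same route. No allele or transgene is named for any group. Several mice were used per group, but how they were combined into a library is not given in the sources used here, so the spread between animals is unknown. No difference between groups was tested, and every interval is a 95% exact interval that covers counting error only. PBMC isolation is meant to leave most neutrophils behind, so the neutrophils below are those that stayed in this fraction.

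Granules are filled in waves as a neutrophil matures in the bone marrow, and a protein ends up in the granule that forms while its gene is active. Azurophil granules form first, in promyelocytes, and hold myeloperoxidase (Mpo) and the serine proteases neutrophil elastase (Elane) and proteinase 3 (Prtn3). Specific granules follow in myelocytes and metamyelocytes and hold lactoferrin (Ltf), lipocalin 2 (Lcn2), the cathelicidin precursor (Camp), neutrophilic granule protein (Ngp), collagenase (Mmp8) and the surface glycoprotein CD177. Gelatinase granules come last and hold the gelatinase Mmp9. Genes of the early granules are known to fall silent before the cell enters blood, so their RNA in blood is usually taken to mark cells that left the marrow early. Transcription factors of the C/EBP family, above all Cebpe, and PU.1 are known regulators of these genes.

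The genes lie on 5 chromosomes, given here in RefSeq coordinates of GRCm38.p6, the assembly behind the build mm10 that the submitters' processing notes name. Camp (chr9:109847377-109849456), Ngp (chr9:110419808-110423012) and Ltf (chr9:111019292-111042766) follow each other on chromosome 9, with 570.351 kb between Camp and Ngp and 596.279 kb between Ngp and Ltf. Mmp8 lies far from them on the same chromosome (chr9:7558429-7568486). Prtn3 (chr10:79879667-79883174) and Elane (chr10:79886312-79888216) are neighbours with 3137 bases between them. Lcn2 (chr2:32384637-32387739) and Mmp9 (chr2:164940326-164955850) share chromosome 2, Cd177 is at chr7:24743983-24760334 and Mpo at chr11:87793784-87804412.

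The 250 bases before the start of 6 genes are shown because these genes fall on both sides of the pattern that the data gave, the neutrophil genes Ngp, Camp and Ltf against the monocyte-borne Prtn3 and Elane, with Mmp8 found in both cell types. The sequences are from RefSeq, build GRCm38.p6, each written 5′ to 3′ on the strand of its gene and ending at the base before the start. Capitals mark a C/EBP-type motif, TTGCNNAA or its reverse complement TTNNGCAA, or a PU.1-type motif, GAGGAAGT or its reverse complement ACTTCCTC. The windows are chr9:110419558-110419807 (+) for Ngp, chr9:109849457-109849706 (-) for Camp, chr9:111019042-111019291 (+) for Ltf, chr9:7558179-7558428 (+) for Mmp8, chr10:79879417-79879666 (+) for Prtn3 and chr10:79886062-79886311 (+) for Elane.
Ngp: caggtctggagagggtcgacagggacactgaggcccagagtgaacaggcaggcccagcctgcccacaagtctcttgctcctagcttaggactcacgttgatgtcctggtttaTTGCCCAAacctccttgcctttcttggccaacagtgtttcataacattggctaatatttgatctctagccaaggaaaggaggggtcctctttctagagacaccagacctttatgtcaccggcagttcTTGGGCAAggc
Camp: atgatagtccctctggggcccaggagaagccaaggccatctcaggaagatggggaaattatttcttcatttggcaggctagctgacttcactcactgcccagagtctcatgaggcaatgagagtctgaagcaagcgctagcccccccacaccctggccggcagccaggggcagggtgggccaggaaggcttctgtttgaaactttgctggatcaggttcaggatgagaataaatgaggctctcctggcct
Ltf: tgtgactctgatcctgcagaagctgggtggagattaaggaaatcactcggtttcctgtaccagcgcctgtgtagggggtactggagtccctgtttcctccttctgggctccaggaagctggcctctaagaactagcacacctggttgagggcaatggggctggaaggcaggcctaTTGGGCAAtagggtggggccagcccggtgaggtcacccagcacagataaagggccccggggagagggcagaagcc
Mmp8: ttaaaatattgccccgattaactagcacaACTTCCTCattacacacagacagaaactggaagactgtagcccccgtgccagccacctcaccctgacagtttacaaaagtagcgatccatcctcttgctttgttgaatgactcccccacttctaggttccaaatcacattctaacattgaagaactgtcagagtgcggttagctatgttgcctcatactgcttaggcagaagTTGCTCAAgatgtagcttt
Prtn3: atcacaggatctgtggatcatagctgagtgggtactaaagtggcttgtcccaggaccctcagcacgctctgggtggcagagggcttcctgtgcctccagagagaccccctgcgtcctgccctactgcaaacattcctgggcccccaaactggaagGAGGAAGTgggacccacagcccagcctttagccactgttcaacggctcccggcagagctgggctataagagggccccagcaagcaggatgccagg
Elane: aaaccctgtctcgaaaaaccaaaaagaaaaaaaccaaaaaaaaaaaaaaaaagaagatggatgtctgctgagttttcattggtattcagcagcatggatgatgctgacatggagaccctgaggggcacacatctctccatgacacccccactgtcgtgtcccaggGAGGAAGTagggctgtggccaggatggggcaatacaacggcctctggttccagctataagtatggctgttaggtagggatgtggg

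The C/EBP-type motif was found in the windows of 4 of the 9 genes with an entry, Ngp (138 and 11 bases before the start), Ltf (75), Lcn2 (216) and Mmp8 (19), where 9.56% of 32851 promoter windows of the same length held it. The PU.1-type motif was found in Mmp8 (221 bases before the start), Elane (85), Mpo (224) and Prtn3 (95), against 2.44% of all windows. Mmp8 held both, Camp and Cd177 held neither on either strand, and no 2 of these matches overlapped. The motifs were chosen with these windows in view, and a match of letters is a description only.

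The libraries held 58894294 UMIs (unique molecular identifiers, one per captured transcript) for young, 82260961 for aged and 98155671 for aged-GA mice. After the study's filters 8851, 10238 and 12648 barcodes were kept. Neutrophils were gated without any of the 10 genes, by S100a8 and S100a9 (the calprotectin subunits) at no less than 1% of UMIs, at least 8 of 17 neutrophil markers and limits on markers of other classes. The gate held 15 barcodes in young (0.169% of kept barcodes, 0.0949 to 0.279), 721 in aged (7.04%, 6.55 to 7.56) and 432 in aged-GA mice (3.42%, 3.11 to 3.75), with median depths of 2925, 2259 and 2479 UMIs. The defining markers Ly6g and Cxcr2 were present in all 3 gates, Ly6g at 525, 269 and 235 CPM (the counts of a gene over those of the whole gate, scaled to 1e6) and Cxcr2 at 256, 692 and 586 CPM. A further 4, 276 and 249 barcodes were rich in calprotectin but carried markers of other classes and were set aside as mixed. Between pairs of libraries 50 to 62 barcode sequences were shared, 1 of them a neutrophil barcode.

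In neutrophils, the specific granule genes Ngp, Camp and Lcn2 were the most abundant of the 10 in every library, the gelatinase granule gene Mmp9 was the most widespread, and the azurophil genes were absent or nearly so. Ngp, a cystatin-like protein, stood at 27474 CPM in the neutrophils of young, 7794 in those of aged and 8844 in those of aged-GA mice. Camp, which yields the antimicrobial peptide CRAMP, stood at 20465, 6302 and 6488 CPM. Ltf, which binds iron, stood at 5408, 1650 and 2541 CPM. These 3 genes were therefore highest in the young library, where the gate held only 15 barcodes. Ngp and Camp were close between the 2 aged libraries, and Ltf was higher in aged-GA mice. Lcn2, which binds bacterial siderophores, stood at 10918, 5576 and 4868 CPM. Mmp8 stood at 2191, 1038 and 1130 CPM. Cd177, a receptor that helps neutrophils to adhere, stood at 705, 286 and 350 CPM. All 6 specific granule genes thus had their highest level over the whole gate in the young library. Mmp9, which degrades gelatin and collagen IV, went the other way, with 1294, 1843 and 1712 CPM. The young gate drew 68.0% of its UMIs from neutrophils with immature markers (defined below), against 27.3% and 29.0% in aged and aged-GA mice. Within that class Ngp, Camp, Lcn2 and Mmp8 stayed highest in young mice. Ltf (7953 in young against 8657 CPM in aged-GA mice) and Cd177 (1036 against 1058 CPM) did not. Elane and Mpo had 0 UMIs in the neutrophils of every library, and Prtn3 had 0, 8 and 5 UMIs. In the order of levels by UMIs captured at the 3′ end, where gene length does not enter, Ngp stood first and Camp second in every library.

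**Figure D1:**
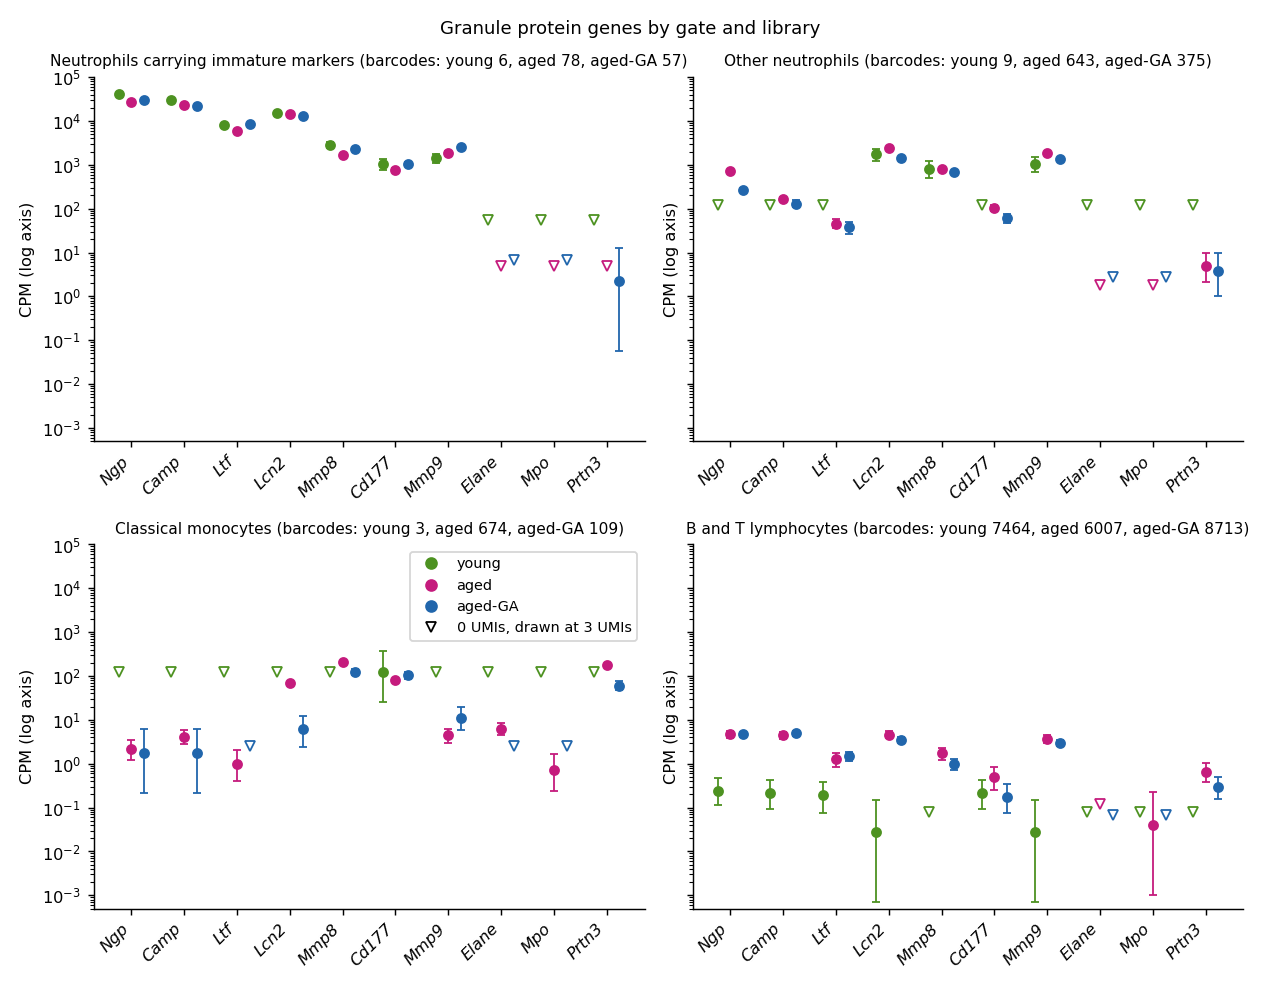
Levels of the 10 genes in CPM (log axis) in 4 gates, by library (colour), with 95% exact Poisson intervals. Triangles mark 0 UMIs, drawn at the level of 3 UMIs. Ngp, Camp and Ltf are highest in neutrophils with immature markers, Prtn3 is a gene of classical monocytes, and lymphocytes lie near or under 5 CPM for each gene.

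The share of neutrophil barcodes with a UMI did not follow the granule classes. Mmp9 was seen in 93.8% of aged and 95.1% of aged-GA neutrophils, Lcn2 in 70.6% and 70.8% and Mmp8 in 61.0% and 57.4%. Ngp was seen in 17.8% of the neutrophils of both libraries, Camp in 13.2% and 15.7%, and Ltf in 11.0% and 13.2%. Cd177 was seen in 22.7% and 19.4%, so that the specific granule genes lay on both sides. B and T lymphocytes were taken as cells that mostly lack these transcripts. Their shares were 1.22% and 1.25% for Mmp9 and 1.88% and 2.36% for Ngp. For Camp they were 1.78% and 2.50% and for Ltf 0.516% and 0.757%. The median depths of these lymphocytes were greater, at 3351 and 4241 UMIs. Ngp, the most abundant gene, was thus carried by fewer than 1 in 5 neutrophils of these 2 libraries, and Mmp9 by almost all. In young mice Ngp was seen in 6 of 15 neutrophils (40.0%). In aged mice 20 barcodes held 50% of all Ngp UMIs of the gate and 134 held 50% of the Mmp9 UMIs, against 15 and 68 in aged-GA mice. A single barcode reached 615 Ngp UMIs in the aged and 631 in the aged-GA library.

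The high carriers were the neutrophils with immature markers. These were defined as neutrophil barcodes with at least 2 UMIs of 5 genes of marrow-stage neutrophils that are not among the 10 (Chil3, Fcnb, Cebpe and the cycling genes Mki67 and Top2a). They made up 6 of 15 young (40.0%, 16.3 to 67.7), 78 of 721 aged (10.8%, 8.65 to 13.3) and 57 of 432 aged-GA neutrophils (13.2%, 10.1 to 16.8). The intervals of the aged and aged-GA libraries overlapped. They were also deeper, with medians of 7848, 7506 and 7422 UMIs against 2575, 2180 and 2365 in the other neutrophils, and they gave 68.0%, 27.3% and 29.0% of all neutrophil UMIs. The part of depth in the division was not tested. In the aged library the 5 marker genes summed to 2642 CPM in immature neutrophils and to 2122 CPM in classical monocytes. For the aged-GA library the sums were 3643 and 1628 CPM. Most of the aged monocyte sum was Chil3, at 2631 CPM in monocytes with a Lcn2 UMI and 1900 CPM in those without. The 5 genes thus did not mark neutrophils alone, and the part of monocyte RNA in the class was not tested. With barcodes thinned to 500 UMIs, Ngp was seen in 79.5% of aged and 87.7% of aged-GA immature neutrophils against 5.75% and 2.93% of the others, beside 85.9% and 87.7% against 9.49% and 7.20% at full depth. When the class was instead defined by a share of UMIs, at least 5 immature marker UMIs per 10000, the log2 ratio of immature over other neutrophils for Ngp was 4.96 in aged and 6.13 in aged-GA mice.

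Ngp stood at 40403, 26680 and 29789 CPM in the immature neutrophils of the young, aged and aged-GA libraries and at 0, 719 and 270 CPM in the others. Camp stood at 30095, 22681 and 22017 CPM against 0, 166 and 131. Ltf stood at 7953, 5932 and 8657 CPM against 0, 45.5 and 37.3. Of the UMIs of Ngp, Camp and Ltf in the gate, no less than 93.3% (aged) and 97.8% (aged-GA), the values of Ngp, lay in the immature class, and all of those in young mice did. The fold of immature over other neutrophils was 37.1 in aged and 110 in aged-GA mice for Ngp, 137 and 168 for Camp, and 130 and 232 for Ltf. It was smaller for Cd177 (7.38 and 17.4), Lcn2 (5.90 and 9.05) and Mmp8 (2.16 and 3.35), and smallest for Mmp9 (1.05 and 1.79). In both libraries the folds were thus highest for Ngp, Camp and Ltf and lowest for the gelatinase gene Mmp9. They divided the specific granule genes, with Mmp8 nearer to Mmp9 than to Ngp. In young mice, where Ngp, Camp, Ltf and Cd177 had 0 UMIs in the 9 other neutrophils, the folds that could be given were 8.85 for Lcn2, 3.55 for Mmp8 and 1.36 for Mmp9.

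Of the 7 genes with at least 50 UMIs over both classes, 6 were higher by at least 2-fold in immature neutrophils in each aged library, where 5.4% of all genes were higher in aged and 4.76% in aged-GA mice. None of the 7 was lower, where 18.5% and 23.7% of all genes were. Each of the 7 had at least 40 UMIs in the other neutrophils alone. Ltf in aged-GA mice, with 40 there, passed the minimum of 50 only with the immature class added. The median log2 ratio of the 7 was 2.87 in aged and 4.10 in aged-GA mice, beside -0.28 and -0.45 over all genes tested. Cebpe, a known regulator of these genes, was among the markers that set the class, and its part was not tested. Markers of mature neutrophils (Cxcr2, Il1r2, Csf3r and Il1b) summed to 2306 CPM in immature against 14887 in other neutrophils of aged mice, and to 2934 against 17826 in aged-GA mice, with none at 0. Markers of classical monocytes summed to 801 against 319 CPM and to 834 against 307 CPM, with none of the 7 at 0. Their part in these ratios was not tested.

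The 15 young neutrophils can be given singly. The 6 with immature markers had between 6222 and 14651 UMIs, and among these 153 to 569 were of Ngp, 152 to 485 of Camp, 42 to 115 of Ltf and 48 to 261 of Lcn2. The 9 others had 0 UMIs of Ngp, Camp, Ltf and Cd177, including 1 barcode of 6574 UMIs. Of these 9 barcodes, 7 carried Mmp9, 6 carried Lcn2 and 4 carried Mmp8. Cd177 had 1 to 12 UMIs in the 6. The 2 classes of young neutrophils thus did not overlap for Ngp, Camp, Ltf or Cd177. The share of all genes without overlap was not counted. Median depth was greater in the 6, and its part was not tested.

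In aged mice the classes did overlap in single barcodes. Ngp in aged immature neutrophils ran from 0 to 60032 CPM per barcode with a median of 25783, and in the others from 0 to 24631 with a median of 0. In aged-GA mice it ran from 0 to 57094 with a median of 29530, against 0 to 7374 with a median of 0. Mmp9 had medians of 2111 and 1581 CPM in the aged and of 2560 and 1393 CPM in the aged-GA classes. Single barcodes thus gave the same order as the sums, with Mmp9 nearly level between the classes in aged mice.

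**Figure D2:**
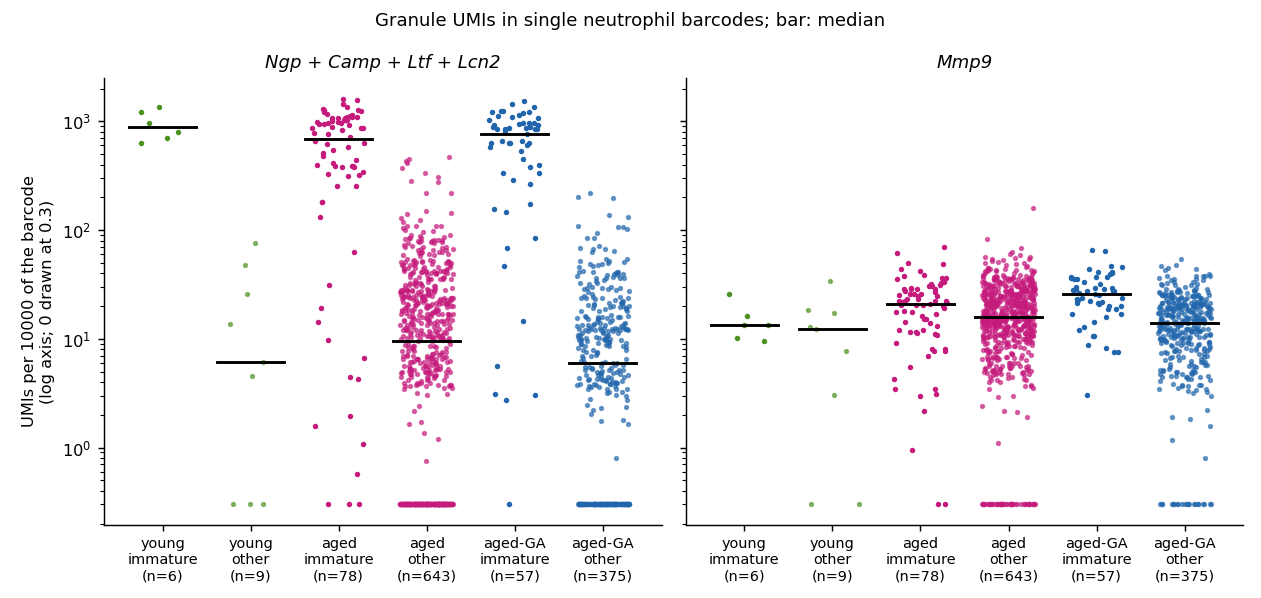
UMIs per 10000 of each neutrophil barcode (log axis, 0 drawn at 0.3) for Ngp, Camp, Ltf and Lcn2 together (left) and Mmp9 (right), with a point per barcode and a bar at the median. Barcodes with immature markers (6, 78 and 57) sit far above the others on the left and much closer to them on the right.

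Ngp, Camp, Ltf and Lcn2 together were unevenly spread over the barcodes. Barcodes with at least 100 of these UMIs per 10000 numbered 6 in the young, 86 in the aged and 57 in the aged-GA library and held 99.1%, 93.7% and 95.9% of the 4 genes' UMIs in the gate. Of these 86 and 57 barcodes, 63 and 48 carried the immature markers. At the other end, 203 aged and 119 aged-GA neutrophils had none of these UMIs, at median depths of 1839 and 2127 UMIs. Across the 721 aged and 432 aged-GA neutrophils, all from 1 library each and of unequal depth, the Pearson correlation of log levels was 0.96 and 0.97 for Camp with Ltf, 0.92 and 0.95 for Ngp with Camp, and 0.90 and 0.95 for Ngp with Ltf. It was 0.75 and 0.86 for Ngp with Cd177, 0.57 and 0.62 with Lcn2, 0.42 and 0.49 with Mmp8 and 0.19 and 0.30 with Mmp9. The order followed the folds between the classes. Within the other neutrophils alone every one of these correlations was lower, with 0.74 and 0.55 for Camp with Ltf, 0.68 and 0.55 for Ngp with Camp, 0.33 and 0.24 for Ngp with Lcn2 and 0.16 and 0.07 for Ngp with Mmp9. The values over all neutrophils thus include the difference between the 2 classes.

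The genes outside the 10 whose levels were most like the sum of Ngp, Camp, Ltf and Lcn2 were taken as those among the 10 highest correlations in both the aged and the aged-GA library. Adpgk, an ADP-dependent glucokinase, came first in both, with r of 0.65 over 721 and 0.72 over 432 barcodes. The other 9 were Itgb2l (0.62 and 0.61), Ifitm6 (0.61 and 0.60), S100a8 (0.59 and 0.59), Chil3 (0.57 and 0.68), S100a9 (0.57 and 0.60), Serpinb1a (0.56 and 0.67), Ly6c2 (0.56 and 0.62), Wfdc21 (0.53 and 0.59) and Cybb (0.50 and 0.59). All 10 genes were the same in both libraries. S100a8, S100a9, Chil3, Ly6c2 and Wfdc21 were used in the gates, and their values carry that choice.

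Other genes, 38 in a list outside the 10, were compared in the same way, 10 for each granule group and 8 regulators. Specific granule genes were mostly higher in immature neutrophils, and the azurophil genes did not share a direction. Of 9 further specific granule genes with enough UMIs, 6 were higher in immature neutrophils of aged and 5 in those of aged-GA mice, and none was lower, beside the shares over all genes given above (5.4% and 4.76% higher, 18.5% and 23.7% lower). They were led by Itgb2l, an integrin subunit (271 against 22.2 CPM in aged mice), Olfm4, olfactomedin 4 (168 against 16.6 CPM), and Cybb, the gp91phox subunit of the NADPH oxidase (1437 against 178 CPM). Of the azurophil genes only 4 and 3 had enough UMIs, with Serpinb1a, an inhibitor of elastase and proteinase 3, higher (396 against 25.2 CPM in aged mice) and Srgn, the proteoglycan serglycin, lower (1179 against 5665 CPM). The minimum counted the UMIs of both classes together. Itgb2l, Olfm4 and Serpinb1a were low in the other neutrophils and could pass it through the immature class alone. Ctsg, Ms4a3 and Bpi, like Elane and Mpo, had no UMI in neutrophils. Of 9 gelatinase and secretory granule genes 1 was higher, the membrane protease Mmp25, and 3 were lower in aged and 4 in aged-GA mice, counts to be read against those 18.5% and 23.7%. Of 5 regulators none was higher and 3 were lower in aged and 4 in aged-GA mice, among them Cebpb (1555 against 4376 CPM in aged mice) and Cxcr4, which retains neutrophils in marrow (255 against 797 CPM).

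Between aged and aged-GA neutrophils the 10 genes differed little. Together they reached 24494 CPM in the aged library and 25937 CPM in the aged-GA library, a log2 ratio of 0.08 (0.06 to 0.10). Of the 7 genes with enough UMIs none was higher and none lower by 2-fold in aged-GA mice, where 1.18% of 5093 genes were higher and 0.295% lower, and their median log2 ratio was 0.12 beside 0.09 over all genes. The values by gene ran from -0.20 for Lcn2 (-0.24 to -0.15) to 0.62 for Ltf (0.56 to 0.69). Ngp stood at 0.18, Camp at 0.04, Mmp8 at 0.12, Cd177 at 0.29 (0.12 to 0.46) and Mmp9 at -0.11. Lcn2 and Mmp9 were therefore slightly lower, Ltf was higher by less than 2-fold, and the other 4 had smaller ratios above 0, of which Camp fell to -0.03 with S100 and haemoglobin genes left out of CPM and Mmp8 to -0.06 with the mixed barcodes kept. Of the further specific granule genes 1 of 10 was higher by 2-fold, Olfm4, with 129 UMIs in aged and 300 in aged-GA neutrophils (log2 ratio 1.77, 1.48 to 2.09), and in the azurophil, gelatinase and regulator groups none was. The mixed barcodes outside the gate held 16.1% of the 10 genes' UMIs in kept aged and 30.2% in kept aged-GA barcodes. There the log2 ratio of the sum was 0.63 (0.59 to 0.66). Ltf stood at 1.22, Ngp at 0.96, Camp at 0.91, Cd177 at 0.64, Lcn2 at 0.17, and Mmp8 and Mmp9 at -0.03.

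The neutrophil sum hid opposite signs in its 2 classes. In immature neutrophils the log2 ratio of aged-GA over aged was 0.16 for Ngp, -0.04 for Camp, 0.55 for Ltf (0.48 to 0.61), -0.09 for Lcn2, 0.40 for Mmp8, 0.45 for Cd177 and 0.39 for Mmp9. None was past 2-fold, where 0.839% of 2146 genes were higher and 2.19% lower, and the median was 0.39 beside 0.06 over all genes. In the other neutrophils it was -1.41 for Ngp, -0.34 for Camp, -0.28 for Ltf (-0.88 to 0.29), -0.71 for Lcn2 (-0.80 to -0.63), -0.23 for Mmp8, -0.78 for Cd177 and -0.39 for Mmp9, and -0.59 for all 10 together. All 7 values were thus below 0 (Ltf with an interval that includes 0) in the other neutrophils, and 5 of 7 above 0 in the immature ones. The median of the 7 in the other neutrophils was -0.39 beside 0.10 over all genes. The share of all genes on either side of 0 was not counted. In the other neutrophils 1 of 7 was lower by 2-fold, where 0.368% of 4349 genes were lower and 2% higher. That gene was Ngp, and 6 aged and 3 aged-GA barcodes held 50% of its UMIs there. S100a8 and S100a9 together were lower in aged-GA mice in both classes, at 112907 against 167500 CPM in the other neutrophils and at 297855 against 312224 CPM in the immature ones, where the 10 genes together were slightly higher (log2 ratio 0.11, 0.09 to 0.13). The sum of the 10 genes stood at 36.0 per 1000 S100a8 and S100a9 UMIs in aged and at 35.6 in aged-GA other neutrophils, and at 34.0 in the 9 young ones. Single genes still differed there. Ngp stood at 4.29 (4.05 to 4.54) in aged and 2.39 (2.12 to 2.68) in aged-GA mice. Lcn2 was also lower in aged-GA mice, at 14.26 against 12.91. Mmp8 (4.71 against 5.94) and Mmp9 (10.87 against 12.34) were higher in aged-GA mice. For each of these genes the intervals did not overlap, and for Camp, Ltf and Cd177 they did. The nearly level sum thus hid opposite differences. In immature neutrophils the sum stood at 343, 236 and 267 per 1000 in young, aged and aged-GA mice.

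**Figure D3:**
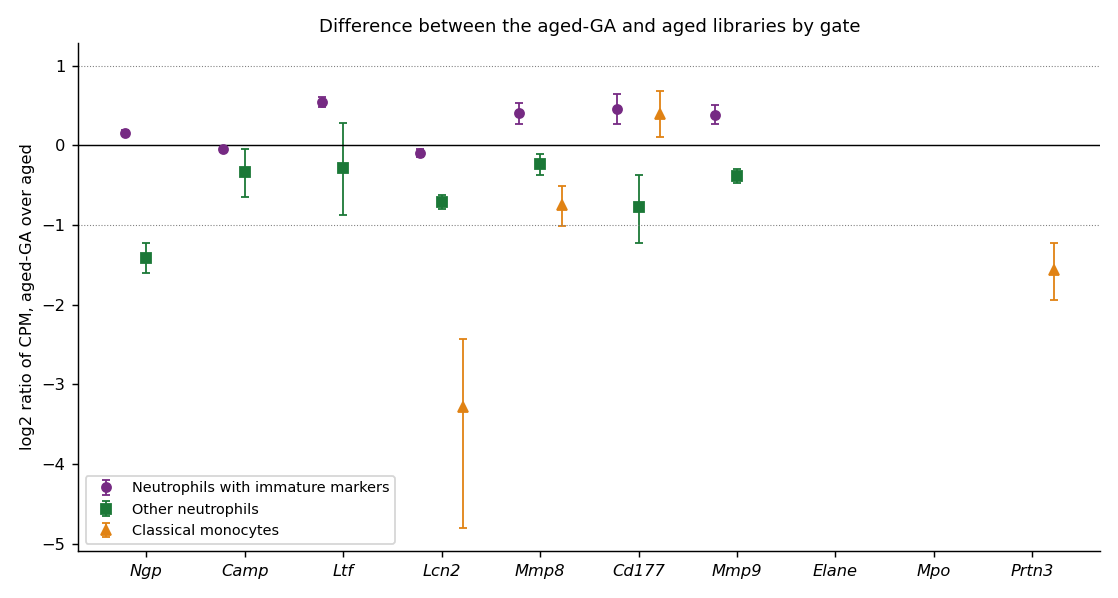
Log2 ratio of CPM plus 1, aged-GA over aged, for each gene with at least 50 UMIs and with UMIs in both libraries, by gate, with exact 95% intervals of the count ratio and dotted lines at 2-fold. Neutrophils with immature markers lie near or above 0, other neutrophils below 0, and Lcn2 and Prtn3 in classical monocytes lie below -1.

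Ltf differed between the libraries also when set against Camp, the gene it followed most closely from barcode to barcode. In immature neutrophils there were 0.264 Ltf UMIs per Camp UMI in young (0.237 to 0.294), 0.262 in aged (0.252 to 0.271) and 0.393 in aged-GA mice (0.379 to 0.408). The interval of the aged-GA library lay above the other 2. In the mixed barcodes, which were not part of the gate, the ratio was 0.198, 0.299 and 0.370. In lymphocytes it was 0.287 in the aged and 0.296 in the aged-GA library.

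The azurophil gene Prtn3 was found in monocytes. Classical monocytes were gated by at least 5 of 7 markers, with the S100 share under 1%, and held 3 young, 674 aged and 109 aged-GA barcodes, with median depths of 8435, 9766 and 9358 UMIs. Their defining genes were present, Ccr2 at 759, 947 and 934 CPM and Csf1r at 337, 335 and 358 CPM. Prtn3 had 1257 UMIs in aged and 70 in aged-GA monocytes, 181 and 60.8 CPM, and was seen in 69.1% (65.5 to 72.6) and 36.7% (27.7 to 46.5) of barcodes. In lymphocytes of the same libraries it was seen in 0.266% and 0.0689%, at median depths of 3351 and 4241 UMIs. Prtn3 was thus 277-fold higher in aged and 210-fold higher in aged-GA monocytes than in lymphocytes. Of all Prtn3 UMIs in kept barcodes, 74.9% of 1678 in aged and 48.6% of 144 in aged-GA mice lay in classical monocytes, and 0.477% and 3.47% in neutrophils.

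Elane followed Prtn3 at a far lower level. It had 44 UMIs in 36 aged monocytes (6.34 CPM, 5.34% of barcodes) and 0 in aged-GA monocytes, and these 44 were 86.3% of the 51 Elane UMIs in kept aged barcodes. Mpo had 5 UMIs in aged and 0 in aged-GA classical monocytes. Of its 19 UMIs in kept aged barcodes, 8 lay in nonclassical monocytes, a separate gate, with 7 of them in 1 barcode. A count of 0 in aged-GA monocytes allows a level of up to 2.60 CPM at 3 UMIs, so Mpo could not be compared. In the 3 young monocytes only Cd177 was seen, with 3 UMIs.

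**Figure D4:**
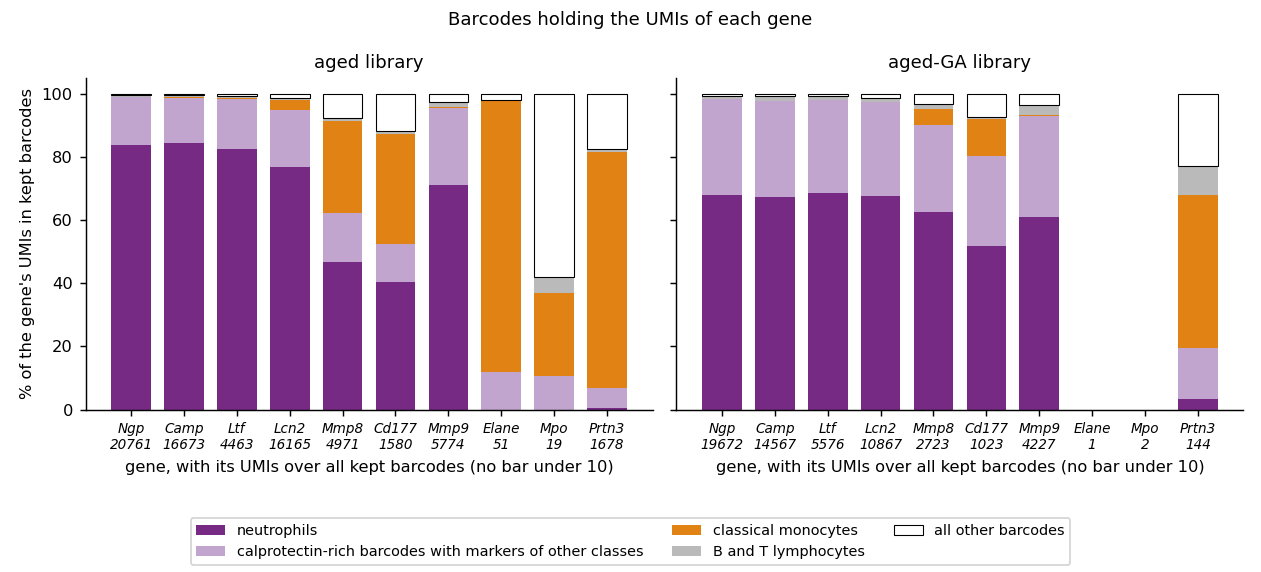
Share of each gene's UMIs in kept barcodes that lay in neutrophils, mixed barcodes, classical monocytes, lymphocytes and all others, in the aged and aged-GA libraries, with the UMIs under each name. Neutrophils and mixed barcodes hold nearly all Ngp, Camp and Ltf, and classical monocytes hold most Elane and Prtn3 of aged mice (no bar where a gene had under 10 UMIs).

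Of the specific granule genes, Mmp8 and Cd177 were shared with classical monocytes, Lcn2 was so in aged mice, and Ngp, Camp and Ltf were not. Mmp8 had 209 CPM in monocytes of aged and 124 CPM in those of aged-GA mice, 122-fold and 127-fold above lymphocytes, and was seen in 66.3% and 47.7% of barcodes against 0.633% and 0.471% of lymphocytes. Cd177 had 79.7 and 105 CPM, 163-fold and 589-fold above lymphocytes, and was seen in 46.6% and 52.3% of barcodes against 0.200% and 0.0918%. Lcn2 had 67.7 CPM in aged monocytes, 14.8-fold (12.0 to 18.4) above lymphocytes. In aged-GA monocytes it had 7 UMIs, 6.08 CPM or 1.76-fold (0.70 to 3.71) above lymphocytes, an interval that includes 1. Ngp stood at 2.16 and 1.74 CPM, Camp at 4.18 and 1.74 CPM and Ltf at 1.01 and 0 CPM in monocytes, at or below their levels in lymphocytes of 4.70 and 4.68, 4.41 and 4.97, and 1.27 and 1.47 CPM. At a thinned depth of 500 UMIs the shares ran in the order of the CPM, with Mmp8 in 9.79% and 5.50%, Prtn3 in 7.86% and 2.75% and Cd177 in 3.12% and 3.67% of monocytes. Summed neutrophil markers were 1906 CPM in monocytes of aged and 1715 CPM in those of aged-GA mice. In neutrophils they were 37582 and 28915 CPM. Of the 17 markers, 1 was at 0 in aged and none in aged-GA monocytes. Ly6g had 2 and 3 UMIs, out of 6937306 and 1151991 UMIs in these monocyte gates. Other sums were not level. The mature neutrophil markers named above rose from 212 to 655 CPM between the aged and the aged-GA gate. S100a8 and S100a9 together rose from 331 to 797 CPM.

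Between aged and aged-GA monocytes the log2 ratio was -1.56 for Prtn3 (-1.94 to -1.23), -3.28 for Lcn2 (-4.80 to -2.42), -0.75 for Mmp8 (-1.01 to -0.50) and 0.39 for Cd177 (0.10 to 0.68). Prtn3 and Lcn2 were thus lower by more than 2-fold in aged-GA mice and Cd177 was not lower. Mmp9, with 31 UMIs in aged and 13 in aged-GA monocytes and so under the minimum of 50, stood at 4.47 against 11.3 CPM (count ratio interval on the log2 scale 0.28 to 2.31). Mature neutrophil markers and S100 genes were higher in the aged-GA gate, and their part in the Mmp9 and Cd177 values was not tested. Of the 4 genes with enough UMIs 2 were lower, where 1.39% of 8086 genes were, and none was higher, where 1.06% were. Lcn2 passed the minimum of 50 UMIs through the aged library alone. The median of the 4 was -1.15 beside 0.06 over all genes. None of the other listed genes with enough UMIs, 4 azurophil, 6 specific, 7 gelatinase and secretory genes and 6 regulators, was past 2-fold. Of the 109 aged-GA monocytes, 9 barcodes held 50% of the 70 Prtn3 UMIs, and 111 of the 674 aged monocytes held 50% of theirs.

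Aged monocytes with at least 5 Prtn3 UMIs also had more Elane than those with fewer. The 208 monocytes with no Prtn3 UMI, the 397 with 1 to 4 and the 69 with at least 5 had Elane at 3.82, 4.56 and 19.1 CPM. The intervals were 1.53 to 7.87, 2.75 to 7.13 and 11.3 to 30.2 CPM, the last from 18 UMIs in 12 barcodes. Lcn2 stood at 45.3, 71.4 and 95.6 CPM and Mmp8 at 173, 216 and 249 CPM in the same 3 sets, while Cd177 stood at 80.7, 78.1 and 85.0 CPM. Elane, Lcn2 and Mmp8 were thus highest in the set with most Prtn3, and Cd177 was level. Ctsg, the azurophil protease cathepsin G, stood at 2.73, 2.40 and 9.56 CPM and Ly6c2 at 1102, 1211 and 1450 CPM. S100a8 rose over the sets (141, 203 and 358 CPM), while Chil3 (2322, 2106 and 1675 CPM) and Csf1r (358, 332 and 303 CPM) fell. How many of all genes ran either way was not counted. Median depth ran with the sets, at 8630, 9901 and 12163 UMIs, and its part was not tested. In aged-GA mice the same sets held 69, 36 and 4 monocytes. They had 6, 1 and 0 Lcn2 UMIs, and Elane had 0 in each.

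Aged monocytes with Lcn2 had more of most neutrophil genes examined, but not of Ngp, Camp or Ltf. The 179 aged monocytes with a Lcn2 UMI had Mmp8 at 303 CPM and the 495 without it at 173 CPM, Wfdc21 at 139 against 17.8 CPM and S100a8 at 501 against 93.2 CPM. S100a9 (243 against 76.5 CPM), Pglyrp1 (68.8 against 28.3), Retnlg (40.6 against 20.2) and Slpi (430 against 278) were also higher. So were Hp (1237 against 989) and Lrg1. For each of these genes the intervals of the sets did not overlap. Retnlg was seen in nearly the same share of barcodes, 13.97% against 13.13%. The difference was not limited to these genes. Ly6c2 (1336 against 1167 CPM), Chil3 (2631 against 1900), Prtn3 (224 against 165) and Elane (11.8 against 4.21) were also higher. Csf1r was lower (301 against 348 CPM), and these intervals did not overlap either. Ccr2 stood at 912 against 960 CPM, with intervals that overlapped. The share of all genes that differed in this way was not counted. Median depth was 10171 UMIs with Lcn2 and 9571 without, and its part was not tested. Ly6g had 1 UMI in each set. Ngp stood at 1.54 against 2.40 CPM, Camp at 4.11 against 4.21 CPM and Ltf at 1.03 against 1.00 CPM. Ngp, Camp and Ltf were therefore not higher in the monocytes with Lcn2. Mmp9 was, at 9.25 CPM (5.48 to 14.6) against 2.60 CPM (1.39 to 4.45), from 18 and 13 UMIs.

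Lymphocytes were taken as cells that mostly lack these genes, and their UMIs of the 10 genes were read as the background of each library. Together the genes stood at 0.924 CPM in young, 21.5 in aged and 19.0 CPM in aged-GA lymphocytes, from 7464, 6007 and 8713 barcodes, a log2 ratio of 3.55 for aged over young (4.04 to 5.09 without the pseudocount of 1 CPM) and -0.17 (-0.34 to -0.02) for aged-GA over aged. The share of neutrophils among kept barcodes was also lowest in young mice. It fell from 7.04% in aged to 3.42% in aged-GA mice, where the lymphocyte levels of the 10 genes were close. Over all genes with enough UMIs in lymphocytes, 11.5% of 11525 were higher by 2-fold in aged than in young mice, with a median log2 ratio of 0.36. Per 1000 S100a8 and S100a9 UMIs the 10 genes had 103 in aged and 121 in aged-GA lymphocytes, beside 118 and 156 in the neutrophil gate. The young value was 179 (124 to 250) in lymphocytes against 298 in neutrophils. B cells alone gave 101 and 121 and T cells 108 and 120, so both kinds of lymphocyte carried the genes in nearly the same proportion. Among single genes, Ngp, Camp and Lcn2 led in aged and aged-GA lymphocytes, as they did in the neutrophils, and Elane had 0 UMIs in all 3 libraries. The proportions differed. Per 1000 S100a8 and S100a9 UMIs, Mmp9 stood at 17.7 in aged and 18.8 in aged-GA lymphocytes against 8.91 and 10.3 in neutrophils. Ngp stood at 22.6 and 29.7 against 37.7 and 53.1. Of the 13 Prtn3 UMIs in aged-GA lymphocytes, 8 came from 1 barcode.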

How the data were processed

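The authors used Cell Ranger (version 5.0.0 per the file headers) with mm10 and deposited unnormalized UMI counts for each barcode. Kept barcodes had 200 genes or more, no more than 90% of their library's highest gene number and 7.5% mitochondrial UMIs or less. The members and lists were chosen with earlier results of these data known, and gate limits were set after the counts were read. Classes were gated on markers outside the 10 genes. B and T lymphocytes needed 3 of 5 markers. UMIs were summed per gate and library and given as CPM. Log2 ratios used a pseudocount of 1 CPM, with intervals of the ratio without it, and needed 50 UMIs over both sides. With 1 library per group no test was made, and a gene was called past 2-fold. Levels of 0 were limited by 3 counts. Doublets were kept and removed only as an alternative (Scrublet, scanpy 1.11.5). Depth was 501 UMIs or more per barcode. Named genes were the 10, the gate markers, a list of 38 granule genes and regulators, and the genes of most like pattern. The comparison of counts was tested on simulated data. Analyses used numpy 2.4.6, scipy 1.17.1 and pandas 2.3.3.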

Additional observations from a re-analysis of the deposited data

Results flagged for a closer look

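With 1 library per group, none of these differences was tested. The ratio of aged-GA over aged had opposite signs in immature and other neutrophils, with both counting intervals off 0, for Ngp (a difference of 1.57 between the log2 ratios), Cd177 (1.23), Mmp9 (0.77) and Mmp8 (0.64). Mmp8 also had opposite signs in the whole neutrophil gate and in classical monocytes, with a difference of 0.87. Barcodes of mostly haemoglobin RNA with under 200 genes were outside every comparison, and there the 10 genes stood at 10.6 CPM in aged (295 UMIs) and 10.9 CPM in aged-GA mice (217 UMIs), above 0.395 CPM in young mice (3 UMIs).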

How the results depend on the processing

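No paired analysis was possible because each group had 1 library, and no replicate could be left out. Of 668 recomputed values 555 moved by less than their counting interval or by less than 1.5 times for counts, 113 moved further, and none past 2-fold changed sign. The few member ratios of aged-GA over aged past 2-fold gave 33 recomputed values over the alternative settings, and all 33 stayed past it. For immature over other neutrophils 131 of 132 recomputed values stayed past it. These are counts of values and not of genes. Some settings did not enter every gate, so part of the values in each count could not move. Ratios near 0 of aged-GA over aged crossed it for Camp and Mmp8 in neutrophils (to -0.03 and -0.06), Camp and Lcn2 in immature neutrophils (to 0.25 and 0.08), Ltf in the other neutrophils (to 0.15) and Ngp in lymphocytes (to 0.04). Without a minimum of genes, neutrophils were 4.59% of aged and 2.62% of aged-GA barcodes. With the mixed barcodes in the gate, an alternative chosen after seeing the data as were the limit on S100 genes in lymphocytes and the immature class by share, they were 9.74% and 5.38%. The immature share of aged neutrophils was 14.6% with them and 8.53% with 1 more marker required. The neutrophil sum of aged-GA over aged was 0.037 without the mitochondrial limit, 0.0073 with S100 and haemoglobin genes left out of CPM and 0.048 with the mixed barcodes. Genes past 2-fold in neutrophils, 60 higher and 15 lower, became 29 and 0 with a pseudocount of 10 CPM, 384 and 157 at a minimum of 10 UMIs and 217 and 30 with the mixed barcodes. The lymphocyte ratio of aged over young was 1.53 with a pseudocount of 10 CPM. Per 1000 S100 UMIs, neutrophils gave 271, 109 and 146 with the mixed barcodes, and lymphocytes with S100 genes under 0.1% gave 113 and 143 in aged and aged-GA mice. The 15 young neutrophils and 3 young monocytes limit every young value.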
